A study of Spodoptera exigua with 2 samples.

Results

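Hemocytes that expressed the serpin locus SPEXI_LOCUS9294 were described in 2 single-cell RNA libraries of the beet armyworm, Spodoptera exigua. These serpin-positive hemocytes were 991 of 27396 deposited cells, namely 633 of 12530 cells from immune-challenged larvae and 358 of 14866 cells from naïve larvae. A unique molecular identifier (UMI) marks each captured mRNA molecule, so that UMIs count molecules. A cell was taken when it had at least 200 genes, 5 or more UMIs of the serpin and at least 4 serpin UMIs per 10000 UMIs of the cell. Cells with 3 or more UMIs of SPEXI_LOCUS1946, with the secreted matrix glycoprotein SPARC at 100 or more per 10000, or with the prophenoloxidases PPO1 plus PPO2 at 200 or more per 10000 were left out. The challenged library came from larvae of the fifth instar that each received 140000 heat-killed E. coli TOP10 cells, and the naïve library from larvae of the same stage that received PBS. Both were collected 8 h after injection from 3 mL of hemolymph, and the number of larvae behind each library was not given in the sources used here. Each condition was 1 library, so there was no replicate error, and no comparison below carries a test. All intervals below are exact 95% intervals that cover counting error only.

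Serpins are a protein family of which many members trap serine proteases in an irreversible complex. In insects, hemolymph serpins hold back the protease cascades that activate prophenoloxidase for melanization and that cleave spätzle, the ligand of Toll receptors. Hemocytes of Lepidoptera are commonly sorted by shape into granulocytes, plasmatocytes, oenocytoids, spherulocytes and prohemocytes, and they engulf or encapsulate intruders and secrete antimicrobial peptides such as cecropins. SPEXI_LOCUS9294 is called the serpin below.

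The serpin values chose the cells and are given only as a description. Among serpin-positive hemocytes the serpin had a median of 12 UMIs per cell in the challenged library (5 to 51) and a median of 7 in the naïve library (5 to 38). Relative to the depth of the cell, the medians were 13.5 and 13.4 per 10000 UMIs. These cells held 8702 of the 10715 serpin UMIs of the challenged library (81.2%) and 3175 of the 5251 of the naïve library (60.5%). At the edge of the rule, 41 challenged and 73 naïve cells had exactly 5 serpin UMIs, while 50 challenged and 81 naïve cells met every other condition with 4. At the limit of 4 per 10000, 19 challenged and 13 naïve cells lay between 4 and 5, and 15 challenged and 13 naïve cells with enough UMIs lay between 3 and 4. The limits on the 3 other gene sets took out 20 challenged and 9 naïve cells. A single serpin UMI was common in some other cells and rare in most. Among other cells, which means cells of the same library with at least 2000 UMIs that did not meet the rule, 794 of 8718 challenged cells and 804 of 8932 naïve cells had a serpin UMI. In challenged cells the share was 2.39% of cathepsin-high cells, 2.91% of SPARC-high cells and 2.82% of PPO-high cells, at median depths of 2701, 7887 and 12644 UMIs. In naïve cells the shares of the same classes were 4.02%, 1.79% and 2.18%, at 2674, 5956 and 10253 UMIs. These shares cover other cells only. They leave out 26 challenged and 11 naïve cathepsin-high cells that met the rule, while SPARC-high and PPO-high cells could not meet it. The classes are therefore not like for like.

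The challenged library held 94500088 UMIs and the naïve library 81253288. Serpin-positive hemocytes had a median of 9021 UMIs in the challenged library and 6362 in the naïve library, against 7362 and 6049 UMIs in other cells. With 5000 UMIs drawn from each cell, serpin-positive hemocytes had a median of 1602 genes in the challenged library and 1563 in the naïve library, against 1364 and 1337 genes in other cells. The thinning left out 63 challenged and 105 naïve serpin-positive hemocytes and 2868 and 3446 other cells. The libraries shared 44 cell barcodes, of which 2 were of challenged and 0 of naïve serpin-positive hemocytes. Doublets called by Scrublet were 13 of the 633 challenged and 6 of the 358 naïve serpin-positive hemocytes, against 2.14% and 2.63% of other cells, and they were kept.

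Serpin-positive hemocytes made up 5.05% of challenged cells with at least 200 genes (interval 4.68 to 5.45) and 2.41% of such naïve cells (interval 2.17 to 2.67). The share was 2.10 times as high in the challenged library (interval 1.84 to 2.39). Because challenged cells were deeper and the rule asked for a fixed number of UMIs, the rule was also applied to cells thinned to 5000 UMIs. The thinning left out 6104 challenged and 9101 naïve cells as too shallow. At 5000 UMIs the count minimum already exceeds the minimum rate, so the thinned rule was stricter on the serpin. The share was then 6.34% of 6420 challenged cells (interval 5.76 to 6.96) and 3.00% of 5739 naïve cells (interval 2.57 to 3.47), a ratio of 2.12. This ratio holds for the deeper cells under the stricter rule, so it cannot show how depth bears on the ratio over all cells. With a minimum of 10 serpin UMIs the shares were 3.11% and 0.788%, a ratio of 3.95. A larger share of such cells and a higher serpin level per cell cannot be told apart from the rule's count alone.

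Hemicentin 1-like, whose name is that of a large secreted immunoglobulin-domain protein of extracellular matrix, was high in most serpin-positive hemocytes. Its level is given in CPM, the UMIs of the gene summed over a group of cells for each 1000000 summed UMIs of those cells. Hemicentin 1-like (SPEXI_LOCUS174) was at 17096 CPM in serpin-positive hemocytes and 1115 CPM in other cells of the challenged library, with a ratio of 15.3 (interval 15.2 to 15.5). In the naïve library it was at 19750 CPM in serpin-positive hemocytes and 1506 CPM in other cells, a ratio of 13.1 (interval 13.0 to 13.3). The gene took no part in the rule. Per cell, its median was 163.6 per 10000 UMIs in challenged serpin-positive hemocytes (0 to 1417) and 138.6 in naïve ones (0 to 1255), while the median of other cells was 0 in both libraries. At least 1 UMI of hemicentin 1-like was found in 99.4% of challenged and 99.2% of naïve serpin-positive hemocytes, against 28.1% and 33.7% of other cells. After thinning to 5000 UMIs these shares were 99.1% and 99.2% of serpin-positive hemocytes and 21.6% and 27.7% of other cells.

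Hemicentin 1-like also differed with the number of serpin UMIs below the rule's minimum. Over challenged cells of at least 2000 UMIs it was at 464 CPM in cells with 0 serpin UMIs, 3097 with 1, 7654 with 2, 8117 with 3, 9215 with 4, 13577 with 5, 12713 with 6 to 9 and 17090 with 10 or more. In naïve cells it was at 615 CPM with 0 serpin UMIs, 5566 with 1, 11660 with 2, 16068 with 3, 14118 with 4, 16750 with 5, 14432 with 6 to 9 and 16457 with 10 or more. The level thus already differed between cells with 0 and with fewer than 5 serpin UMIs, and in naïve cells the level from 3 serpin UMIs on stayed between 14118 and 16750 CPM. Median depths of the classes ran from 7143 to 10040 UMIs in challenged cells and from 5477 to 7104 UMIs in naïve cells.

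**Figure D1:**
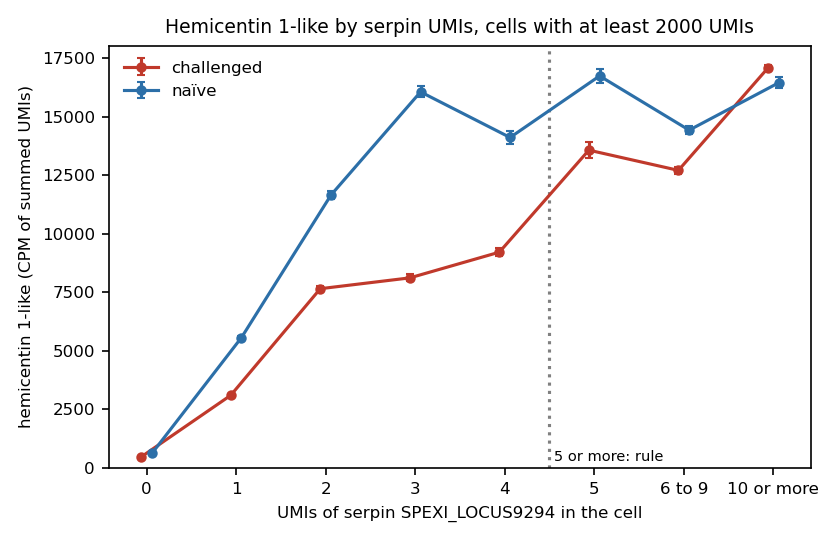
Level of hemicentin 1-like (CPM of summed UMIs, vertical axis) in cells with at least 2000 UMIs, grouped by the number of serpin UMIs in the cell (horizontal axis), for challenged (red) and naïve (blue) cells. Bars are exact 95% Poisson intervals, and the dotted line marks the minimum of 5 serpin UMIs. Challenged cells run from 464 CPM with 0 serpin UMIs to 17090 CPM with 10 or more, and naïve cells already reach 16068 CPM with 3.

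Cells rich in hemicentin 1-like were then taken without regard to the serpin, as cells of at least 2000 UMIs with 50 or more per 10000, a limit chosen after the values had been seen. They were 949 of 9347 challenged cells (10.2%, interval 9.55 to 10.8) and 848 of 9280 naïve cells (9.14%, interval 8.56 to 9.74), a ratio of 1.11. Within them the serpin was at 905 CPM in the challenged library (interval 886 to 925) and 556 CPM in the naïve library (interval 537 to 575), a ratio of 1.63 (interval 1.56 to 1.69). With a limit of 20 or 100 per 10000 that ratio was 1.81 or 1.68. Thinned to 5000 UMIs, 76.8% of 818 challenged (interval 73.7 to 79.6) and 67.9% of 589 naïve hemicentin 1-like-rich cells (interval 64.0 to 71.7) kept a serpin UMI, and the thinning left out 131 and 259 shallower cells. Of the hemicentin 1-like-rich cells, 500 challenged (52.7%, interval 49.5 to 55.9) and 269 naïve (31.7%, interval 28.6 to 35.0) met the serpin rule. The share of cells rich in hemicentin 1-like thus lay closer between the libraries than the share of serpin-positive hemocytes, and the serpin level within them was higher in the challenged library.

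Hemicentin 1-like-rich cells that did not meet the rule differed from serpin-positive hemocytes in few genes. Against the 449 such challenged cells, 35 of 2476 genes were at least 2-fold higher and 25 at least 2-fold lower in serpin-positive hemocytes, and the median log2 ratio was 0.01. Against the 579 such naïve cells, 26 of 2423 genes were higher and 28 lower, with a median of -0.03. Those cells still held the serpin at 218 CPM in the challenged library and 216 CPM in the naïve library, against 5.53 and 4.12 CPM in other cells with no UMI of hemicentin 1-like. The rule that those cells did not meet limits their serpin level, so the 218 and 216 CPM do not compare the libraries.

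Closeness of whole profiles was measured in each library from 2000 variable genes and 30 principal components, with the 5 genes of the rule left out. Of the 20 nearest neighbours of a challenged serpin-positive hemocyte, 70.5% on average were serpin-positive hemocytes themselves, against 6.77% of all cells in that space. For naïve cells the mean was 43.7%, against 3.85% of all cells. No serpin-positive hemocyte was among the neighbours of 7 challenged and 10 naïve ones. The median depth of the neighbours was 9080 UMIs for challenged and 6193 UMIs for naïve cells, near the 9021 and 6362 of the cells themselves. Hemicentin 1-like-rich cells were 81.3% of the challenged and 75.03% of the naïve neighbours, against 10.2% and 9.19% of all cells. Hemicentin 1-like was not among the genes left out, so it could itself help set which cells were neighbours.

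Across genes with a mean of at least 50 CPM over the compared groups in each library, 411 of 2207 were at least 2-fold higher in serpin-positive hemocytes than in other cells of both libraries (18.6%) and 149 were at least 2-fold lower in both (6.75%). Within the challenged library alone 23.5% of genes were higher and 10.5% lower, and within the naïve library 21.4% were higher and 7.72% lower. A difference of 10-fold or more was found for 24 higher and 35 lower genes, and 0 genes were 2-fold higher in 1 library and 2-fold lower in the other. The rule made this contrast, so the counts describe the cells and are no test. The median log2 ratio over all genes was 0.39 in the challenged library and 0.36 in the naïve library, so that the middle gene had a ratio above 1. The TMM factor of edgeR, a scaling that centres the ratios, lowered every log2 ratio by 0.32 in the challenged and 0.33 in the naïve library and gave 263 higher and 215 lower genes. Among the 54 listed genes outside the rule, 31 passed the minimum in both libraries, of which 8 were higher and 7 lower in both. They are described below by role.

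Of the 3 antimicrobial peptide genes 1 was higher in both libraries and 0 were lower. Among these effectors, spodoptericin, an antimicrobial peptide, was 2-fold higher in serpin-positive hemocytes of both libraries. It was at 5089 CPM in serpin-positive hemocytes and 803 CPM in other cells of the challenged library, with a ratio of 6.34 (interval 6.26 to 6.43). In naïve cells it was at 4839 and 1333 CPM, a ratio of 3.63 (interval 3.56 to 3.70). Spodoptericin reached 10 or more per 10000 in 97.5% of challenged and 95.5% of naïve serpin-positive hemocytes, against 17.99% and 25.6% of other cells. A level of 100 or more was rare in all of these groups, at 5.85% and 11.2% of serpin-positive hemocytes and 1.98% and 2.68% of other cells. The cecropins, small membrane-disrupting peptides, were within 2-fold of other cells by pooled CPM. The ratio of cecropin B to other cells was 0.94 in the challenged and 0.56 in the naïve library, and that of cecropin A1 was 1.42 and 0.74. Per challenged cell the medians lay further apart, at 138.9 against 54.6 per 10000 for cecropin B and 65.0 against 23.8 for cecropin A1. At 10 or more per 10000 the naïve shares were instead lower in serpin-positive hemocytes, at 22.1% against 34.5% and 26.8% against 32.4%.

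Of 8 tested genes listed for other hemocyte functions, 4 were higher in both libraries and 0 were lower, namely slowmo, BLL4, GABA receptor-associated protein and apoptosis-inducing factor. The GABA receptor-associated protein (SPEXI_LOCUS4004) is a ubiquitin-like protein of the Atg8 family that takes part in autophagosome formation. It was at 4710 CPM in serpin-positive hemocytes and 1128 CPM in other cells of the challenged library, with a ratio of 4.18 (interval 4.12 to 4.23). In the naïve library it was at 5995 and 1516 CPM, a ratio of 3.96 (interval 3.89 to 4.02). Per cell, its median was 41.5 per 10000 UMIs in challenged and 43.1 in naïve serpin-positive hemocytes, against 10.7 and 12.2 in other cells. Apoptosis-inducing factor (SPEXI_LOCUS3559), a mitochondrial oxidoreductase that can move to the nucleus in dying cells, had ratios of 2.60 and 2.52 in the challenged and naïve libraries. It was detected in 80.3% of challenged and 64.5% of naïve serpin-positive hemocytes, against 33.5% and 27.7% of other cells. Without cathepsin-high, SPARC-high and PPO-high cells among the other cells, the log2 ratios of apoptosis-inducing factor (SPEXI_LOCUS3559) were 0.95 and 0.64, below 2-fold. Slowmo (SPEXI_LOCUS10009), a mitochondrial protein known from Drosophila, had ratios of 2.01 and 2.20, and both fell below 2 with the TMM factor. Of the 12 alternatives not chosen after seeing the data, 5 kept it past 2-fold in the challenged and 9 in the naïve library. The MANF homolog, a secreted protein of the endoplasmic reticulum stress response, had ratios of 1.32 and 1.48, and HSP70 cognate 4, a constitutive chaperone, had ratios of 0.87 and 1.01.

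Troponin I was the only one of the 3 muscle genes on the list that passed the minimum, and it was high in serpin-positive hemocytes. Troponin I, the inhibitory subunit of the thin-filament calcium switch, was at 259 CPM in serpin-positive hemocytes and 21.3 CPM in other cells of the challenged library, with a ratio of 12.2 (interval 11.4 to 13.0). In the naïve library it was at 449 and 50.2 CPM, a ratio of 8.95 (interval 8.35 to 9.57). It had a UMI in 416 of 633 challenged and 249 of 358 naïve serpin-positive hemocytes. Troponin T, the tropomyosin-binding subunit, had 2 UMIs in all challenged and 2 in all naïve serpin-positive hemocytes, and myosin regulatory light chain 2 had 14 and 4. The other muscle genes on the list were therefore near 0 in cells that held troponin I.

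Lower in serpin-positive hemocytes of both libraries were hemocytin, both lysosomal proteases, PGRP-LB and 3 of 5 tested uncharacterized loci. Hemocytin, a large adhesive protein of the von Willebrand factor kind that takes part in hemocyte aggregation, was at 281 CPM in serpin-positive hemocytes and 3627 CPM in other cells of the challenged library, with a ratio of 0.078. In the naïve library it was at 232 and 3765 CPM, a ratio of 0.062. Its median was 0 per 10000 in serpin-positive hemocytes of both libraries, against 9.84 in challenged and 10.4 in naïve other cells. The rule barred SPARC-high cells, and the study lists hemocytin with SPARC for an oenocytoid cluster. SPARC-high cells were 3025 of 8718 challenged and 3735 of 8932 naïve other cells. Under alternatives not chosen after seeing the data, hemocytin stayed past 2-fold, with log2 ratios of at most -2.08 in the challenged and -1.62 in the naïve library. PGRP-LB, a peptidoglycan recognition protein that in Drosophila cleaves peptidoglycan and dampens the IMD pathway, had ratios of 0.11 and 0.16 to other cells. All 7 translation genes, which are 6 ribosomal proteins and an elongation factor, had ratios below 1, from 0.49 to 0.76 in the challenged library and from 0.59 to 0.88 in the naïve library, and 0 of 7 were 2-fold lower in both. Procathepsin H and cysteine proteinase 1-like, lysosomal cysteine proteases, had ratios of 0.16 and 0.18 in the challenged library and 0.28 and 0.25 in the naïve library. These cathepsin ratios rested on cathepsin-high cells on both sides. Among serpin-positive hemocytes, 26 challenged and 11 naïve cells at 200 or more per 10000 held 78.7% and 79.9% of the cathepsin UMIs. The median of both genes together was 3.12 per 10000 in challenged and 2.80 in naïve serpin-positive hemocytes, against 3.76 and 2.72 in other cells. Without cathepsin-high, SPARC-high and PPO-high cells among the other cells, the cathepsin log2 ratios turned to between 2.33 and 2.82.

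**Figure D2:**
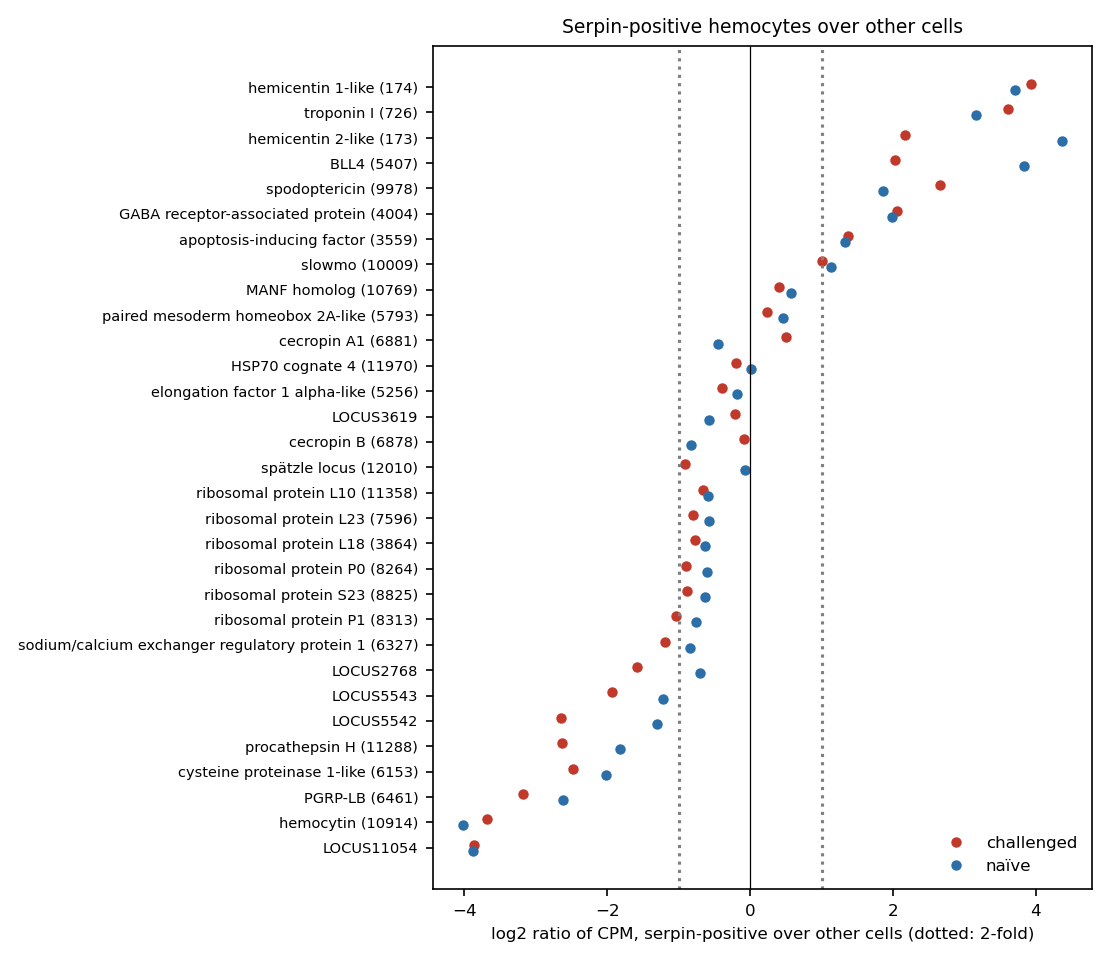
Log2 ratio of CPM, serpin-positive hemocytes over other cells of the same library (horizontal axis), for the 31 listed genes outside the rule with a mean of at least 50 CPM in both libraries (vertical axis, locus number in brackets), in challenged (red) and naïve (blue) cells. Dotted lines mark 2-fold. Hemicentin 1-like lies 15.3-fold and 13.1-fold above other cells, and hemocytin lies at ratios of 0.078 and 0.062. By the rule, SPARC-high cells could only be among other cells.

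Genes that the study lists for named hemocyte classes were set against the label. Serpin-positive hemocytes had paired mesoderm homeobox 2A-like, the study's plasmatocyte marker, at 500 CPM in the challenged and 451 CPM in the naïve library, against 425 and 327 CPM in other cells. Sodium/calcium exchanger regulatory protein 1, listed by the study for clusters of several classes, was at 4859 and 4756 CPM, against 11065 and 8553 CPM in other cells. The medians per challenged cell lay closer, at 29.2 per 10000 against 38.8 in other cells, while the 95th percentiles were 115 and 764. Calphotin-like and alkaline trypsin B, listed by the study for a spherulocyte cluster, were at 1.67 and 1.34 CPM in challenged and 8.58 and 1.23 CPM in naïve serpin-positive hemocytes. They were low in other cells as well, at 5.06 and 1.62 CPM in the challenged and 12.4 and 1.93 CPM in the naïve library. Neither passed the minimum. The rule capped SPARC and the prophenoloxidases, which bears on their levels here. The cap also bears on genes that the study lists with SPARC, such as hemocytin and SPEXI_LOCUS11054. SPARC had medians of 1.04 and 1.28 per 10000, far below its limit of 100, against 48.8 in challenged other cells. PPO1 was close to other cells in the typical challenged cell. Its median was 4.03 per 10000, against 4.97 in other cells, and 95.9% and 95.7% of cells had a UMI. Cells with SPARC at 20 or more per 10000 were 25 of 633 challenged and 15 of 358 naïve serpin-positive hemocytes. Cecropin B, the study's granulocyte marker, was within 2-fold of other cells in both libraries by pooled CPM. Its median per challenged cell was 138.9 per 10000 in serpin-positive hemocytes and 54.6 in other cells. In the naïve library 22.1% of serpin-positive hemocytes and 34.5% of other cells held it at 10 or more per 10000. Of the other listed genes, some were higher. Hemicentin 1-like is listed by the study for granulocyte clusters and was 15.3-fold and 13.1-fold higher in challenged and naïve serpin-positive hemocytes than in other cells. Hemicentin 2-like and BLL4, listed for another granulocyte cluster, were 4.51-fold and 4.08-fold higher in the challenged and 20.7-fold and 14.3-fold higher in the naïve library. HSP70 cognate 4, listed for the same cluster, had ratios of 0.87 and 1.01. GABA receptor-associated protein, listed for a further granulocyte cluster, was 4.18-fold and 3.96-fold higher. Ribosomal proteins S23 and P1, listed with it, had ratios below 1 in both libraries. Slowmo, listed for a plasmatocyte cluster, was 2.01-fold and 2.20-fold higher. Of the genes listed with it, the MANF homolog had ratios of 1.32 and 1.48. The uncharacterized locus SPEXI_LOCUS10030 had 4 UMIs in serpin-positive hemocytes of each library, with ratios of 0.068 and 0.26. Among uncharacterized loci listed for the other plasmatocyte cluster, SPEXI_LOCUS457 had ratios of 3.66 and 6.91 and SPEXI_LOCUS842 of 2.16 and 2.43, on few UMIs. SPEXI_LOCUS970, also listed there, had 0 UMIs. None of these loci passed the minimum. The genes listed for granulocytes thus did not point one way. Of the detected genes listed for plasmatocytes, only SPEXI_LOCUS10030 had ratios below 1. No class was assigned, and the cells are called by the serpin alone. SPEXI_LOCUS11054, an uncharacterized locus of the study's tables, was at 652 CPM in challenged and 875 CPM in naïve serpin-positive hemocytes, against 9525 and 12912 CPM in other cells. Under alternatives not chosen after seeing the data, its log2 ratios were at most -1.64 and -1.21. Among genes that no table names, SPEXI_LOCUS1830 and SPEXI_LOCUS12564 had the largest rises among those that passed the minimum in both libraries, ranked by the smaller of the 2 ratios. SPEXI_LOCUS1830 was at 262 CPM in serpin-positive hemocytes and 8.45 CPM in other cells of the challenged library, and at 110 and 6.398 CPM in the naïve library. SPEXI_LOCUS12564 was at 134 and 5.70 CPM in challenged cells and at 107 and 5.45 CPM in naïve cells. SPEXI_LOCUS10037 and SPEXI_LOCUS11921 had the largest falls by the same ranking, with ratios of 0.058 and 0.061 in the challenged and 0.049 and 0.050 in the naïve library.

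Serpin-positive hemocytes varied widely in hemicentin 1-like. In the challenged library 504 of 633 (79.6%, interval 76.3 to 82.7) and in the naïve library 275 of 358 (76.8%, interval 72.1 to 81.1) held it at 50 or more per 10000, and 4 and 3 cells held none. The quartiles were 68.2 and 261.4 per 10000 in challenged cells and 54.7 and 303.5 in naïve cells. A level of 400 or more was found in 6.16% of challenged and 17.3% of naïve serpin-positive hemocytes. Below 50 per 10000 lay 129 challenged and 83 naïve cells, with median depths of 10007 and 4704 UMIs.

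**Figure D3:**
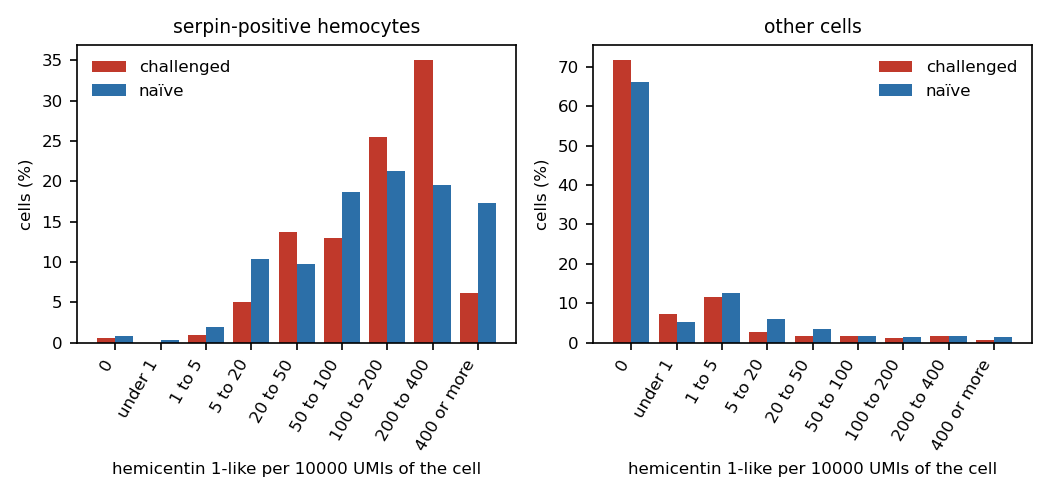
Share of cells (percent, vertical axes, different scales) by hemicentin 1-like UMIs per 10000 UMIs of the cell (horizontal axes) in serpin-positive hemocytes (left) and other cells (right) of the challenged (red) and naïve (blue) libraries. Other cells are at 0 in 71.9% of challenged and 66.3% of naïve cells, and serpin-positive hemocytes are at 50 or more in 79.6% and 76.8%.

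The hemicentin 1-like-low serpin-positive hemocytes were compared with the -high ones, as a split made after the values had been seen. Of 2171 genes, 21 were at least 2-fold higher (0.967%) and 125 at least 2-fold lower (5.76%) in the low cells of both libraries. All 7 translation genes were higher in the low cells of both libraries, with ratios from 1.54 to 1.97 in the challenged and from 1.44 to 1.70 in the naïve library. GABA receptor-associated protein was at 6566 CPM in low and 4141 CPM in high cells of the challenged library, with a ratio of 1.59, and at 7972 and 5498 CPM in the naïve library, a ratio of 1.45. Troponin I was lower in the low cells, at 149 CPM in low and 293 CPM in high challenged cells and at 238 and 502 CPM in naïve cells. Apoptosis-inducing factor had low-to-high ratios of 0.61 and 0.46. Of these named genes none passed 2-fold in both libraries, while SPEXI_LOCUS5542, an uncharacterized locus, did with ratios of 2.04 and 2.24. The serpin had a low-to-high ratio of 0.64 in the challenged library (interval 0.60 to 0.68) and 1.06 in the naïve library (interval 0.97 to 1.16). Of the nearest neighbours of low cells, 57.9% in the challenged and 30.4% in the naïve library were serpin-positive, against 73.7% and 47.7% for high cells. Serpin-positive hemocytes were 6.77% and 3.85% of all cells in that space. Hemicentin 1-like-rich cells were 34.9% and 21.1% of the neighbours of low cells, against 93.2% and 91.3% for high cells.

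**Figure D4:**
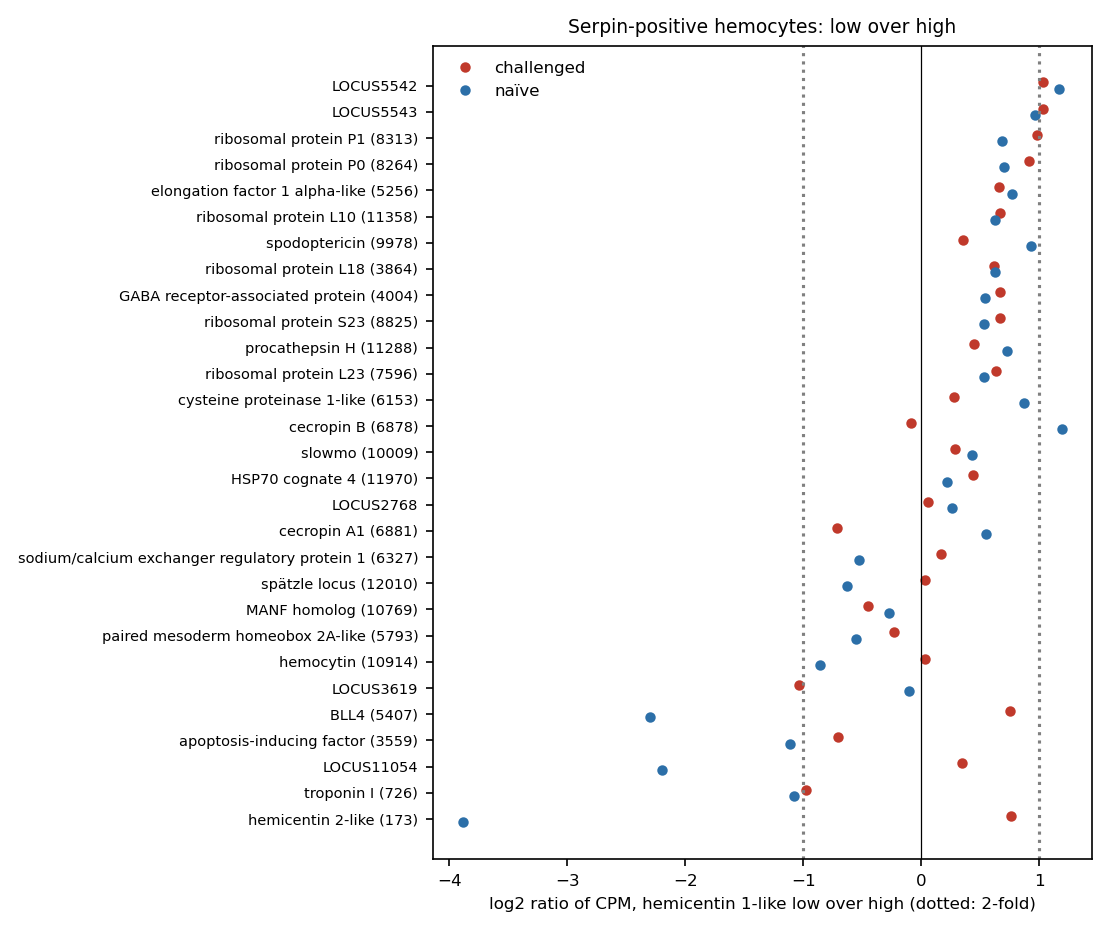
Log2 ratio of CPM, hemicentin 1-like-low over -high serpin-positive hemocytes (horizontal axis), for listed genes with a mean of at least 50 CPM in both libraries (vertical axis), in challenged (red) and naïve (blue) cells, with dotted lines at 2-fold. The 7 translation genes lie at ratios from 1.44 to 1.97, and hemicentin 2-like lies at 1.69 in challenged and 0.068 in naïve cells.

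A few serpin-positive hemocytes carried most of the hemicentin 2-like and BLL4 UMIs. Hemicentin 2-like was at 50 or more per 10000 in 10 challenged (1.58%, interval 0.76 to 2.89) and 26 naïve serpin-positive hemocytes (7.26%, interval 4.80 to 10.5), against 0.723% and 0.504% of other cells, and its highest cells held 1729 and 3841 per 10000. These cells were shallower, with medians of 5814 and 3211 UMIs. They set the pooled levels, with hemicentin 2-like at 37602 CPM in the 10 challenged cells and 65.8 CPM in hemicentin 1-like-high cells without it, and at 80136 and 116 CPM in the naïve library. BLL4 was at 9806 CPM in the 10 challenged and 17747 CPM in the 26 naïve cells, against 45.3 and 76.3 CPM in hemicentin 1-like-high cells without hemicentin 2-like. Hemicentin 1-like-rich other cells held hemicentin 2-like at 1026 CPM in the challenged and 2396 CPM in the naïve library.

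Between the conditions, 68 of 2451 genes were at least 2-fold higher (2.77%) and 50 at least 2-fold lower (2.04%) in challenged than in naïve serpin-positive hemocytes, with a median log2 ratio of 0.08. In other cells 55 of 2178 genes were 2-fold higher (2.53%) and 24 lower (1.10%). Of the 54 listed genes outside the rule, 32 passed the minimum in serpin-positive hemocytes, of which 4 were 2-fold higher and 2 were 2-fold lower in the challenged library. The 4 higher genes were cecropin B, cecropin A1, PGRP-LB and the small PGRP locus SPEXI_LOCUS6460, and the 2 lower ones were hemicentin 2-like and BLL4.

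Cecropin B was at 18975 CPM in challenged and 1643 CPM in naïve serpin-positive hemocytes, a ratio of 11.6 (interval 11.2 to 11.9), against a ratio of 6.93 in other cells. Cecropin A1 was at 7959 CPM in challenged and 943 CPM in naïve serpin-positive hemocytes, a ratio of 8.44 (interval 8.09 to 8.80), against 4.38 in other cells. The cecropin levels of other cells were 20200 and 5619 CPM in the challenged and 2915 and 1282 CPM in the naïve library. Per cell, cecropin B had a median of 138.9 per 10000 in challenged serpin-positive hemocytes (0 to 1349) and 1.43 in naïve ones (0 to 521). At 10 or more per 10000 lay 87.5% of challenged serpin-positive hemocytes (interval 84.7 to 90.0) and 22.1% of naïve ones (interval 17.9 to 26.7), against 72.5% and 34.5% of other cells. In the naïve library the 5 highest cells held 42.6% of the cecropin B UMIs of serpin-positive hemocytes, whereas in the challenged library they held 5.74%. Hemicentin 1-like-low serpin-positive hemocytes had a cecropin B ratio of 6.07 and a cecropin A1 ratio of 4.24, and high ones had 14.7 and 10.1, with naïve cecropin B at 2982 CPM in low and 1306 CPM in high cells.

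Of 6 listed recognition genes 2 passed the minimum, and both were higher in challenged serpin-positive hemocytes. The small PGRP locus SPEXI_LOCUS6460 was at 239 CPM in challenged and 10.2 CPM in naïve serpin-positive hemocytes, a ratio of 23.4 (interval 15.8 to 36.2). In other cells it was at 54.4 and 6.23 CPM, a ratio of 8.72 (interval 7.92 to 9.63). It was found in 328 of 633 challenged and 13 of 358 naïve serpin-positive hemocytes, and after thinning to 5000 UMIs in 46.5% and 2.77%, against 17.7% and 2.33% of other cells. Its level in challenged cells was 40.0 CPM where hemicentin 1-like was low (ratio 3.28 to naïve, interval 1.41 to 9.31) and 299 CPM where it was high (ratio 30.8, interval 19.7 to 51.4). PGRP-LB was at 222 CPM in challenged and 15.9 CPM in naïve serpin-positive hemocytes, a ratio of 13.9 (interval 10.1 to 19.7), against 2004 and 98.0 CPM and a ratio of 20.5 in other cells. Its median was 0 in serpin-positive hemocytes, and the 5 highest of the 633 challenged cells held 43.4% of its UMIs. SPEXI_LOCUS12275, SPEXI_LOCUS12278 and SPEXI_LOCUS3847, further small PGRP loci, had between 0 and 32 UMIs in all serpin-positive hemocytes of both libraries, and the β-1,3-glucan receptor locus had 0 UMIs.

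Genes of the Toll pathway, which carries the signal of cleaved spätzle to Dorsal, were mostly at low levels. Of 9 listed loci only the spätzle locus SPEXI_LOCUS12010 passed the minimum in serpin-positive hemocytes. It was at 213 CPM in challenged and 298 CPM in naïve serpin-positive hemocytes, a ratio of 0.72 (interval 0.65 to 0.78), against 403 and 313 CPM in other cells, a ratio of 1.29. Per challenged cell, however, its median was 1.28 per 10000 in serpin-positive hemocytes and 0 in other cells, and 64.3% and 43.8% had a UMI. The 95th percentiles were 6.16 and 32.6 per 10000, so high cells raised the pooled level of other cells. MyD88, the adaptor of Toll receptors, was at 49.6 and 48.2 CPM, about as high in either library and above the 25.5 and 26.5 CPM of other cells. The Toll receptor locus SPEXI_LOCUS78 was at 41.2 CPM in challenged and 25.3 CPM in naïve serpin-positive hemocytes, and Pelle, the kinase downstream of MyD88, at 21.3 and 27.0 CPM. SPEXI_LOCUS11477, a locus shown as Dorsal or its inhibitor IκB, was at 28.8 CPM in challenged and 64.1 CPM in naïve serpin-positive hemocytes, a ratio of 0.45 (interval 0.36 to 0.56), against 0.68 in other cells.

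Several genes that were high in serpin-positive hemocytes within each library were within 2-fold between the conditions. Spodoptericin was at 5089 CPM in challenged and 4839 CPM in naïve serpin-positive hemocytes, a ratio of 1.05 (interval 1.03 to 1.07), against 0.60 in other cells. Hemicentin 1-like had a ratio of 0.87, apoptosis-inducing factor 0.95, slowmo 1.15 and GABA receptor-associated protein 0.79, none of them 2-fold. Troponin I had a ratio of 0.58 (interval 0.53 to 0.62). The 7 translation genes had ratios from 0.71 to 0.85 in serpin-positive hemocytes and from 0.82 to 1.04 in other cells. Hemicentin 2-like was at 456 CPM in challenged and 3276 CPM in naïve serpin-positive hemocytes, a ratio of 0.14, and BLL4 at 141 and 768 CPM, a ratio of 0.18. Without the hemicentin 2-like-rich cells, 69 genes were 2-fold higher and 47 lower.

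**Figure D5:**
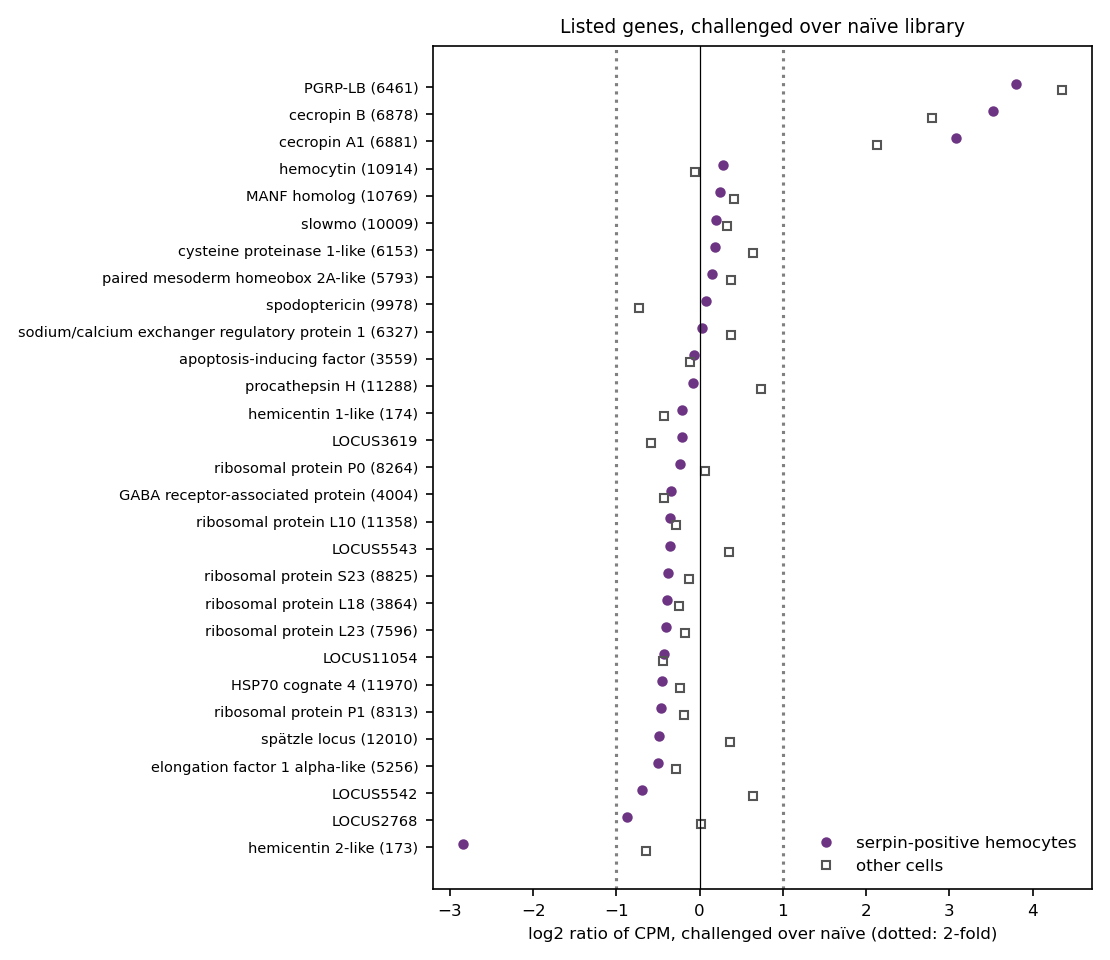
Log2 ratio of CPM, challenged over naïve library (horizontal axis), for listed genes with a mean of at least 50 CPM in both kinds of cell (vertical axis), in serpin-positive hemocytes (filled circles) and other cells (open squares), with dotted lines at 2-fold. Cecropin B lies at 11.6-fold in serpin-positive hemocytes and 6.93-fold in other cells, and spodoptericin at ratios of 1.05 and 0.60.

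Among unnamed loci, the 2 with the largest rise and the 2 with the largest fall between the conditions were as follows. SPEXI_LOCUS11075 had 1078 UMIs in challenged (180 CPM) and 2 UMIs in naïve serpin-positive hemocytes, a ratio of 221 (interval 61.0 to 1826), against 90.0 in other cells (interval 68.7 to 120.4), an interval that overlaps the first, and its UMIs lay in 122 of the 633 challenged cells. SPEXI_LOCUS5143 was at 99.6 CPM in challenged and 3.27 CPM in naïve serpin-positive hemocytes, a ratio of 30.5 (interval 15.4 to 70.9), against 8.13 in other cells. SPEXI_LOCUS12318 was at 17.4 CPM in challenged and 156 CPM in naïve serpin-positive hemocytes, a ratio of 0.11, against 0.18 in other cells. SPEXI_LOCUS7675 had 0 UMIs in challenged and 249 UMIs in naïve serpin-positive hemocytes, but 248 of these came from 1 cell.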

How the data were processed

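The authors prepared 1 10x Chromium library per condition, ran Cell Ranger on the reads, and what they deposited are unnormalized UMI counts for each gene in each called cell. The deposited matrix headers name Cell Ranger 7.2.0, another version than the study's methods. Genome build and annotation were not given in the sources used here. The submitters' processing notes also list STAR 2.7.10a, Bowtie2 2.4.5 and Seurat 4.0. The study's mitochondrial filter was not applied.

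Serpin-positive hemocytes were taken by the rule in the report. Counts were summed over cells per library and kind of cell and scaled to CPM. Ratios have exact conditional intervals, levels exact Poisson intervals and shares exact Clopper-Pearson intervals, at 95%. Against 0 UMIs a floor of 3 counts stood in. Genes needed a mean of 50 CPM, and 2-fold was the call. No test was run. Members and gene lists, taken from the study's supplementary tables and from a description of the whole series, were chosen with earlier results of these data known. The genes named are those of the rule, all genes of the lists and, in each comparison, the 2 unnamed loci with the largest rise and the 2 with the largest fall. The ratio and interval code was tested on simulated data. Doublets were called with Scrublet in scanpy 1.11.5. Alternatives covered the rule's limits, depth, doublets, the choice of other cells, cell weights, scaling and the CPM minimum, and the closing section names those chosen after seeing the data. Python 3.11.15, scipy 1.17.1, scikit-learn 1.9.0 and edgeR 4.0.16 in R 4.3.3 were used.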

Additional observations from a re-analysis of the deposited data

Results flagged for a closer look

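For 8 listed genes the challenged over naïve ratio lay on opposite sides of 1 in serpin-positive hemocytes and in other cells, with both intervals excluding 1. The difference between the 2 kinds of cell was not tested, since each condition is 1 library. Spodoptericin had a ratio of 1.05 in serpin-positive hemocytes and 0.60 in other cells. The spätzle locus SPEXI_LOCUS12010 had 0.715 and 1.29. Procathepsin H had 0.946 and 1.66. Hemocytin had 1.21 and 0.963. Ribosomal protein P0 had 0.849 and 1.04. The uncharacterized loci SPEXI_LOCUS5543, SPEXI_LOCUS5542 and SPEXI_LOCUS2768 had 0.782, 0.617 and 0.547 in serpin-positive hemocytes and 1.28, 1.57 and 1.01 in other cells. With the TMM factor 7 of the 8 kept both intervals off 1, and for SPEXI_LOCUS2768 the interval in other cells, 0.996 to 1.007, then included 1. In serpin-positive hemocytes the ratio of 3 of the 8 moved to the other side of 1 under other settings. On the log2 scale, spodoptericin was at -0.025 with each cell given the same weight. Procathepsin H was at 2.32 with a minimum of 10 serpin UMIs, at 0.73 with a minimum of 8 per 10000 and at 0.11 with each cell given the same weight. Hemocytin was at -0.29 without called doublets, at -0.15 with each cell given the same weight and at -0.050 without the limits on the other gene sets.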

How the results depend on the processing

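The challenged over naïve ratio of the share of serpin-positive hemocytes was 3.95 with a minimum of 10 UMIs and 1.79 among cells with at least 2000 UMIs. In an alternative chosen after seeing the data, with hemicentin 1-like-high cells in place of serpin-positive ones, it was 1.11. Genes higher in serpin-positive hemocytes than in other cells numbered 263 with the TMM factor, which lowers every ratio. With a minimum of 20 CPM, which lets more genes in, the counts were 618 higher and 288 lower than in other cells, and 113 higher and 98 lower in challenged than in naïve cells. Against hemicentin 1-like-high other cells alone, chosen after seeing the data, 11 genes were higher and 13 lower in both libraries. All other counts stayed within 1.5 times.

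Of 57 values of named genes past 2-fold, 40 stayed past it under every alternative but those chosen after seeing the data. Of values past 2-fold, these log2 ratios to other cells changed sign. Without cathepsin-high, SPARC-high and PPO-high cells, procathepsin H was at 2.40 in challenged and 2.82 in naïve cells, cysteine proteinase 1-like at 2.33 and 2.35, and SPEXI_LOCUS2768 at 1.02 in challenged cells. With other cells of at least 5000 UMIs, naïve procathepsin H was at 0.64, cysteine proteinase 1-like at 0.043 in challenged and 0.36 in naïve cells, and challenged SPEXI_LOCUS2768 at 0.48. With a minimum of 10 UMIs, naïve SPEXI_LOCUS7675 was at -2.92. Against hemicentin 1-like-high other cells, challenged procathepsin H was at 0.069, cysteine proteinase 1-like at 0.12, SPEXI_LOCUS2768 at 0.087, hemicentin 2-like at -1.17 and BLL4 at -1.27, hemicentin 1-like was at -0.13 in challenged and -0.22 in naïve cells, and naïve BLL4 and apoptosis-inducing factor were at -0.079 and -0.26. Another 23 values that were within 2-fold changed sign under at least 1 alternative, 14 of them ratios to other cells and 9 challenged over naïve ratios. Among them, naïve SPEXI_LOCUS2768 reached 1.28 without the cathepsin-high, SPARC-high and PPO-high cells, the naïve spätzle locus 0.55 with other cells weighted to the depth of the serpin-positive ones, and challenged SPEXI_LOCUS3619 0.80 against hemicentin 1-like-high other cells. The cause was not tested, but cathepsin-high cells and hemicentin 1-like-high cells were themselves chosen by the levels of the cathepsins and of hemicentin 1-like.

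No paired analysis was possible because each condition is 1 library. Intervals cover counting error only, cells of 1 library are not replicates, and called doublets were below the 10.0% and 11.9% expected from the cell numbers, so doublets can remain.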
